A study of Mus musculus with 54 samples.

Results

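Single cells of warm-dissociated mouse kidney were profiled either fresh or after cryopreservation. The comparison used 6 of the 54 libraries of the series: the fresh libraries BG2, BG4 and BG6 and the cryopreserved libraries BG31, BG33 and BG35. They were chosen by the strain, dissociation and storage given for each sample, a rule that uses no measured value. Both groups came from male littermates of AFAPIL.1DEL C57BL/6J mice, 19 weeks of age, whose kidneys had been digested enzymatically at 37 °C with the Multi-tissue dissociation kit 2. Cryopreserved aliquots were frozen in fetal bovine serum (50%), RPMI medium (40%) and the cryoprotectant DMSO (10%), stored for 6 weeks in liquid nitrogen and thawed at 37 °C. Each fresh library shared its suspension, and so its animal, with a cryopreserved one, according to the barcode prefixes: BG2 and BG31 came from suspension BG20H, BG4 and BG33 from BG21H, and BG6 and BG35 from BG22H. The stored aliquots were captured weeks after the fresh ones, so that storage and the day of capture cannot be told apart.

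The kidney filters blood in glomeruli and then recovers water and solutes along the nephron, first in the proximal tubule, then in the loop of Henle, the distal convoluted and connecting tubules and the collecting duct. Freezing exposes cells to ice, to the osmotic load of the cryoprotectant and to thawing. Cells answer such injury and enzymatic digestion with immediate-early genes, which encode transcription factors such as *Fos* and *Jun* and need no new protein for their induction. Heat shock chaperones, which refold damaged proteins, are switched on by the same kinds of injury. Droplet libraries also contain RNA released from broken cells, which is captured together with each intact cell.

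The fresh libraries held 2412, 5972 and 2873 cells with 5252363, 14064480 and 6299622 unique molecular identifiers (UMIs, each counting 1 captured RNA molecule). The cryopreserved libraries were smaller, with 1255, 1000 and 1228 cells and 1589682, 1908091 and 2016943 UMIs. Any pair of the 6 libraries shared between 0 and 39 cell barcodes, at most 1.36% of the smaller library, and aliquots of the same suspension shared 6 or 7. BG31 stood apart from the other cryopreserved libraries. Outside the proximal tubule its cells had a median of 870 UMIs against 1445 in BG33 and 1259 in BG35, and a median mitochondrial share of 25.1% against 14.3% and 15.0%. For this reason many counts of calls are also given without BG31. Cell classes were assigned by clustering and marker genes and are to be read as "-like" classes. Markers of 21 kidney and immune classes were used, and podocytes, the filtering cells of the glomerulus, numbered only 5 in the fresh and 2 in the cryopreserved libraries.

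Proximal tubule cells, which reabsorb most of the filtrate, were nearly lost after cryopreservation. They made up 73.6%, 70.8% and 70.7% of the cells in BG2, BG4 and BG6 and 0.64%, 0.60% and 0.65% in BG31, BG33 and BG35, where only 8, 6 and 8 such cells were left. The groups were far apart and each varied little, at 71.7 ± 1.66% in fresh and 0.630 ± 0.0266% in cryopreserved libraries (SD, n = 3 each). On the log2 scale the share differed by -6.82 (SE 0.16, adjusted p = 7.36e-07, edgeR on cell numbers). The 22 cells pooled over the cryopreserved libraries were 0.632% of 3483 cells, with a 95% Wilson interval of 0.418% to 0.955% that covers counting error only. So few cells allowed no test of gene expression in this class.

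Of all cells 14 other classes took a higher share after cryopreservation, as their shares and that of the proximal tubule sum to the whole. Composition was therefore compared among the 3226 fresh and 3461 cryopreserved cells outside the proximal tubule. Connecting tubule cells, which reabsorb calcium and sodium, formed 11.5%, 11.6% and 10.1% of these cells in the fresh libraries and 2.49%, 2.52% and 1.89% in the cryopreserved ones. Their share differed by -2.26 on the log2 scale (SE 0.22, adjusted p = 0.000746), and all cryopreserved libraries lay below all fresh ones. With the suspension as a block the difference remained past the threshold (adjusted p = 0.011). Over the 16 classes tested, 12.5% were called lower and 0% higher at an adjusted p of 0.05.

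Cells of the ascending loop of Henle, which reabsorb salt without water, were the other class called lower. They formed 23.1%, 19.2% and 27.0% of the fresh and 10.5%, 12.7% and 13.0% of the cryopreserved cells outside the proximal tubule. The groups did not overlap, and the log2 difference was -0.94 (SE 0.22, adjusted p = 0.0429). The call was lost with the suspension as a block (adjusted p = 0.126), and it was also lost when any of BG2, BG4, BG6, BG33 or BG35 was left out. Distal convoluted tubule cells had values on the same side, 7.22%, 8.93% and 7.71% against 5.29%, 4.93% and 4.34%, at an adjusted p of 0.067. Without BG31 they were called lower too (log2 difference -0.82, adjusted p = 0.00294, edgeR).

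No class was called at a higher share with all 6 libraries in the fit (edgeR), while the shares of T cells, principal cells, mesangial and mural cells and cluster 22 were higher in every cryopreserved than in any fresh library. BG31 held 268 collecting duct principal cells, the water-reabsorbing cells that carry aquaporin 2, which was 21.5% of its cells outside the proximal tubule against 3.42% in BG33 and 4.34% in BG35. Mesangial and mural cells, which wrap capillaries and arterioles, likewise formed 7.46% of BG31 against 1.51% and 1.64%. Without BG31, 8 classes were called higher: B cells, T cells, dendritic cells, monocytes, neutrophils, endothelial cells, principal cells and cluster 22. BG31 was singled out after the data were seen, and its removal left BG33 and BG35 as the only cryopreserved libraries. The range with other libraries left out is given below. T cell shares, for example, were 4.71%, 3.38% and 4.63% in the fresh libraries and 5.85%, 7.95% and 9.84% in the cryopreserved ones. The log2 difference of T cells was 0.90 with all libraries (adjusted p = 0.073) and 1.14 without BG31 (adjusted p = 7.15e-05). That of endothelial cells without BG31 was 0.40 (adjusted p = 0.047, edgeR). Shares outside the proximal tubule also sum to a whole, so that lower shares of some classes raise those of others. The part of this in the calls without BG31 was not tested. Macrophages were at 17.3%, 18.6% and 16.1% against 12.7%, 16.2% and 14.9%, which overlap (adjusted p = 0.341). Cluster 22, led by *Sox17*, *Fbln5*, *Edn1* and *Mgp*, scored highest for the endothelial class, with 12 of 13 endothelial markers passed. Its marker score was 5.07 for that class and 1.77 for the next, podocytes. It was left unnamed by the naming rule, as its 10 leading genes held no endothelial marker and 1 of fibroblasts. The cluster is kept under its number.

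**Figure D1:**
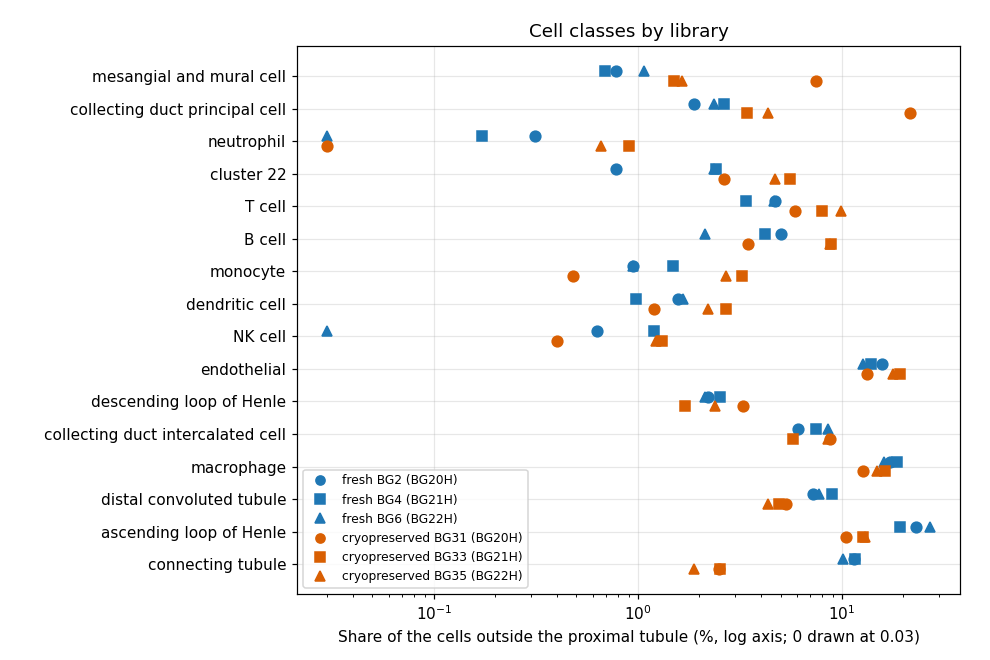
Share of each cell class among the cells outside the proximal tubule (percent, log axis, values of 0 drawn at 0.03) in the fresh (blue) and cryopreserved (orange) libraries, with 1 marker shape per suspension. Connecting tubule and ascending loop of Henle lie lower in all 3 cryopreserved libraries, and the circle of BG31 stands far to the right for principal cells at 21.5%.

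Proximal tubule transcripts found in other cells fell together with the proximal tubule itself. *Kap*, a kidney androgen-regulated gene of the proximal tubule, was detected in 49.3 ± 11.9% of fresh and 7.18 ± 0.62% of cryopreserved cells of other classes after each cell was thinned to 500 UMIs (SD, n = 3 each). The exact two-sided permutation p was 0.1, the smallest that 3 libraries against 3 allow. In B and T cells, which are not known to make *Kap*, the shares at the same depth were 39.3%, 64.6% and 40.0% in fresh and 5.15%, 3.66% and 6.02% in cryopreserved libraries. The values in lymphocytes thus lay close to those over all classes in both groups.

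Depth and complexity over all cells outside the proximal tubule overlapped between the groups. The median number of UMIs per cell was 1327 ± 198 in fresh and 1191 ± 293 in cryopreserved libraries (exact permutation p = 0.6, n = 3 each). At 500 UMIs the median number of genes per cell was 274 ± 14.5 and 267 ± 8.96 (exact permutation p = 0.4, n = 3 each). Both differences took the other sign with names by marker score, as given below. That in UMIs also did so without BG31, and that in genes without BG2. The mitochondrial share was 26.7 ± 5.18% and 18.1 ± 6.02% (exact permutation p = 0.2, n = 3 each). Single classes differed more: the median mitochondrial share of macrophages was 24.7%, 34.8% and 27.8% in the fresh and 17.1%, 10.2% and 9.68% in the cryopreserved libraries. The clusters that made up this class also differed between the groups, as given below, and their part in this share was not tested. Median UMIs per cell were lower in every cryopreserved library for B cells, T cells, dendritic cells, endothelial cells, principal cells and the distal convoluted tubule. Genes per cell at 500 UMIs were lower in every cryopreserved library for B cells, T cells, dendritic cells, endothelial cells and the connecting tubule, at 341, 311 and 330 against 269, 310 and 309 in endothelial cells, for example.

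Gene expression was tested in the 12 classes with enough cells, on UMIs summed per library and class. Of 19167 gene and class pairs, 929 (4.85%) were called higher and 715 (3.73%) lower after cryopreservation at an adjusted p of 0.05. The calls fell on 440 genes higher and 383 genes lower in at least 1 class, and 11 genes were called higher in some class and lower in another. Macrophages had the most calls of the 12 classes, 201 higher and 195 lower of 2031 genes, and the descending loop of Henle the fewest, 4 and 1 of 764. Without BG31 the totals over classes were 735 and 618, and without BG35 they were 572 and 399. In 29.3% of all pairs the 3 cryopreserved libraries lay entirely above or below the fresh ones.

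In several classes the largest cluster differed between the 2 groups, and some of these clusters were also tested on their own. Cluster 33 held 79.5% of the fresh principal cells and cluster 28 held 82.3% of the cryopreserved ones, 248 of which were from BG31. For macrophages the corresponding clusters were 12 (66.1% of fresh) and 3 (70.3% of cryopreserved), for intercalated cells 29 (63.5%) and 31 (49.3%), and for the connecting tubule 24 (60.6%) and 23 (53.2%). These clusters differed in depth. Median UMIs per cell were 633 in cluster 12 and 1740 in cluster 3, and 660.5 in 29 and 3102 in 31. They were 711 in 24 and 2072 in 23, and 3295 in 33 and 872 in 28. Within macrophage cluster 3 alone 138 genes were called higher and 64 lower, of which 124 and 43 were also called for the whole class. Within cluster 12 the numbers were 73 and 111, with 46 and 78 shared. Principal cell cluster 33 alone had 29 higher and 35 lower (28 and 22 shared), connecting tubule cluster 23 had 31 and 22 (26 and 18 shared), and intercalated cluster 29 had 23 and 18 (16 and 18 shared). Levels are given as UMIs per 10000, averaged over the 11 classes with enough cells in all 6 libraries, so that each class has equal weight.

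Most immediate-early transcription factors were called higher after cryopreservation in at least 1 class, 14 of the 17 tested. Over all genes it was 440 of the 4744 tested in any class, and a gene tested in more classes has more chances of a call. Of 143 pairs tested for this list, 59 were called higher and 1 lower, against 4.85% and 3.73% of all pairs, and the median log2 fold change was 0.75 against -0.02 over all pairs. Without BG31 the counts were 50 and 2. *Fosb*, a partner in the AP-1 dimer, was at 3.06, 2.56 and 3.16 UMIs per 10000 in BG2, BG4 and BG6 and at 8.32, 7.16 and 7.74 in BG31, BG33 and BG35. Its groups were separate, and it was called higher in 9 of 12 classes. *Fos*, which encodes the classical AP-1 subunit, was at 19.2, 12.6 and 15.2 in fresh and 25.5, 25.1 and 27.3 in cryopreserved libraries, and was called higher in 6 of 12 classes. *Atf3*, a stress-induced repressor, was at 2.37, 1.57 and 2.48 against 6.35, 5.73 and 5.37, and was called higher in 6 of 10 classes.

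Other members of the list moved less or in fewer classes. *Jund* was called higher in 7 of 12 classes and *Jun* in 4 of 12, with fresh levels of *Jun* between 11 and 15.3 and cryopreserved levels at 19.1, 17.4 and 16.4. *Junb* was at 23.8, 14.8 and 17.6 against 20.2, 17.5 and 19.2, which overlap. It was called higher in 4 classes and lower in B cells (log2 fold change -0.86, SE 0.17, adjusted p = 0.010). The study's list of 17 stress genes counted 89 pairs higher and 2 lower of 192, and 74 and 4 without BG31. The list was picked for genes induced in warm- over cold-dissociated samples, the fresh libraries here among them, so it is not independent of these data.

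Regulatory sequence upstream of 4 stress genes is shown because immediate-early and heat shock genes are known for distinct promoter elements. The 4 were picked among the list members for holding the motif. The 250 bases before the start site of each gene are from RefSeq on GRCm38.p6, written along the gene's strand. Capitals mark TGACGT, the core of the cyclic AMP response element, on either strand, in *Fos* at chr12:85473640-85473889 (+) and *Dusp1* at chr17:26508473-26508722 (-). In *Hspa1a* at chr17:34972157-34972406 (-) and *Hspb1* at chr5:135887669-135887918 (+) they mark GAANNTTC, the paired unit of the heat shock element, which reads the same way on both strands.
Fos: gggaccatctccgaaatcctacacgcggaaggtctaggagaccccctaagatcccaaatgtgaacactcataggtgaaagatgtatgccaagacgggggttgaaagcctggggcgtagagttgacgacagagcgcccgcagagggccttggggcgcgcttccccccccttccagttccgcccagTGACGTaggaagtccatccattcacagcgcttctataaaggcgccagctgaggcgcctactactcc
Dusp1: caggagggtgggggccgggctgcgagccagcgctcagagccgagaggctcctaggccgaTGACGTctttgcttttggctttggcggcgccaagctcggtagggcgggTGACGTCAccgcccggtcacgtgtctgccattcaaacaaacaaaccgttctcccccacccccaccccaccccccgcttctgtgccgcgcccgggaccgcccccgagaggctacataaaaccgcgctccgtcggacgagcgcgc
Hspa1a: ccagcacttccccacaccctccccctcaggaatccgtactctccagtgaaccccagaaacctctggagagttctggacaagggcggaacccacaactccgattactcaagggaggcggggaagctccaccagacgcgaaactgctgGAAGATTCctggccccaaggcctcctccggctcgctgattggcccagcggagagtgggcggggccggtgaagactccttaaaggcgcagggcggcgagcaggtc
Hspb1: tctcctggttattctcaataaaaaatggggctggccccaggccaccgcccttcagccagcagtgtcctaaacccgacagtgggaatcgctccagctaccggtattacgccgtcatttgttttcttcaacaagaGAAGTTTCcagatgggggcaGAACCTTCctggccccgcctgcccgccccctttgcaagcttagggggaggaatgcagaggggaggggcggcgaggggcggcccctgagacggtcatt

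TGACGT was found in 7.29% and GAANNTTC in 7.73% of the 27025 genes with a promoter of the same length (6.47% and 6.69% of the 32851 promoters). Of the heat shock list, 17 of 20 members had a promoter in the table and 7 of these held GAANNTTC (*Dnaja1*, *Fkbp4*, *Hspa1a*, *Hspa1b*, *Hspb1*, *Hspd1* and *Hspe1*). TGACGT was present in 5 of 17 immediate-early genes (*Atf3*, *Egr2*, *Fos*, *Maff* and *Nr4a3*) and in 5 of 14 feedback regulators (*Btg1*, *Btg2*, *Dusp1*, *Dusp5* and *Tnfaip3*). GAANNTTC was also present in 2 of the 17 immediate-early genes (*Fosl2* and *Jun*) and 1 of the 14 feedback regulators (*Sgk1*), and TGACGT in 1 of the 17 heat shock genes (*Dnajb4*). In *Dusp1* 2 of the 3 matches overlap on opposite strands. These matches describe the letters of the promoter and were not tested against expression.

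Feedback regulators, which limit the immediate-early response by removing phosphate groups, degrading mRNA or holding back NF-κB, were called higher in 46 and lower in 1 of 122 pairs (40 and 1 without BG31). *Nfkbia*, the inhibitor of NF-κB, was at 5.07, 3.99 and 3.70 UMIs per 10000 in the fresh and 7.75, 6.76 and 7.88 in the cryopreserved libraries, and was called higher in 7 of 11 classes. *Ier3* was called higher in 7 of 10 classes and *Btg1* in 6 of 12. *Dusp1*, a phosphatase of MAP kinases whose promoter is printed above, was called higher in 5 of 12 classes. *Pim1*, a survival kinase, depended on BG31: it was called higher in 6 of 8 classes with it and in 3 without it.

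Heat shock chaperones were called higher in 39 and lower in 0 of 129 pairs (33 and 1 without BG31). *Hspb1*, a small chaperone of the actin cytoskeleton, was at 2.15, 1.99 and 2.33 UMIs per 10000 in fresh and 5.85, 6.77 and 7.17 in cryopreserved libraries and was called higher in 6 of 8 classes. Its libraries were separate. *Hspa1a*, the inducible Hsp70, was at 13.3, 7.42 and 18.7 against 21.6, 18.7 and 24.98, so that the fresh BG6 and the cryopreserved BG33 were level. It was called higher in 6 of 12 classes, and without BG31 in 4 and lower in 1. *Hspa1a* and *Hspa1b* are near-identical copies, and how reads divided between them is uncertain. *Dnajb1*, the Hsp40 partner of Hsp70, was called higher in 4 of 11 classes and was at 2.02, 1.44 and 3.17 against 3.06, 4.98 and 7.93, which overlap. *Hspd1* and *Hspe1*, the mitochondrial chaperonins, were called in none of 8 and 12 classes, with median log2 fold changes of -0.56 and -0.01.

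**Figure D2:**
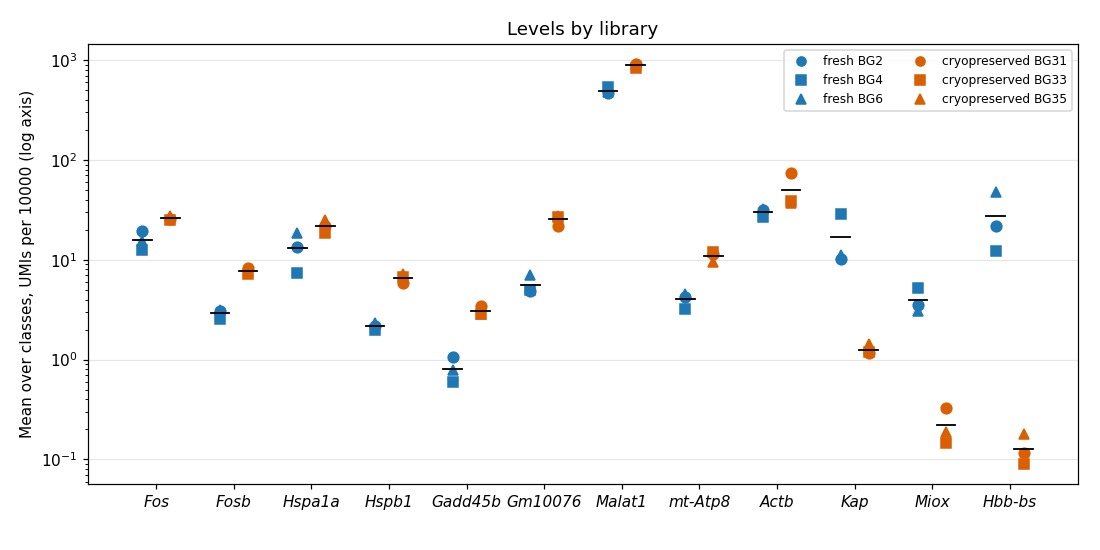
Level of 12 genes in each library (UMIs per 10000, mean over 11 classes, log axis) in fresh (blue) and cryopreserved (orange) libraries, with 1 marker shape per suspension and a bar at the group mean. *Fosb*, *Hspb1* and *Gm10076* sit higher in all cryopreserved libraries, *Kap*, *Miox* and *Hbb-bs* sit lower, and *Actb* is at 73.9 in BG31 against 38.8 and 37.1 in the other cryopreserved libraries.

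Intercalated, endothelial and tubule cells and macrophages had most of the stress calls. Of the study's 17 stress genes, 15 of 17 tested were called higher in intercalated cells, 15 of 17 in endothelial cells, 12 of 14 in the connecting tubule and 11 of 17 each in the ascending loop of Henle, the distal convoluted tubule and macrophages. In principal cells 7 of 17 were called higher, in T cells 4 of 15 and in cluster 22 3 of 17. In B cells, dendritic cells and the descending loop of Henle none was called higher, of 12, 16 and 16 tested, while in B cells and dendritic cells 1 each was called lower. Over all genes the share called higher was 5.71% in intercalated cells, 5.31% in endothelial cells, 6.21% in the connecting tubule, 5.44% in the ascending loop, 3.03% in the distal convoluted tubule and 9.9% in macrophages. It was 4.31% in principal cells, 4.78% in T cells, 1.85% in cluster 22, 3.25% in B cells, 1.52% in dendritic cells and 0.524% in the descending loop. Without BG31 the genes called higher went from 132 to 72 in the ascending loop, from 49 to 31 in T cells and from 39 to 24 in cluster 22. The genes called lower went from 50 to 10 in T cells and from 24 to 42 in the distal convoluted tubule. In intercalated cells, the connecting tubule, macrophages and principal cells the largest cluster differed between the groups, as given above. The part of this in the stress calls was not tested. Whether the classes differ in their response was not tested either.

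The level of *Fos* in fresh cells varied among classes. *Fos* in the distal convoluted tubule was at 3.40, 2.73 and 5.24 UMIs per 10000 in fresh and 17.4, 4.38 and 22.5 in cryopreserved libraries (log2 fold change 1.94, SE 0.45, adjusted p = 0.025), with BG33 inside the fresh range. In the descending loop of Henle it was already at 37.2, 27.9 and 50.6 in fresh cells and at 38.7, 55.6 and 55.7 after storage (adjusted p = 0.552). In dendritic cells it was at 31.2, 19.7 and 14.9 against 24.5, 15.7 and 14.1, which overlap. Endothelial *Fos* had 14.9, 8.85 and 7.38 against 31.5, 30.5 and 24.5 (log2 fold change 1.66, SE 0.19), with all cryopreserved libraries above.

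*Hspa1a* also differed among classes. In intercalated cells, which secrete acid or base, it was at 2.26, 2.39 and 2.13 UMIs per 10000 in fresh and 11.6, 9.79 and 19.3 in cryopreserved libraries (log2 fold change 2.60, SE 0.24). In endothelial cells it was at 40.2, 21.3 and 32.7 against 93.4, 74.2 and 79.5 (log2 fold change 1.59, SE 0.18), above every other class in each cryopreserved library. In B cells it was at 15.1, 5.71 and 25.8 against 3.78, 3.48 and 15.2, with overlapping groups (adjusted p = 0.320).

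**Figure D3:**
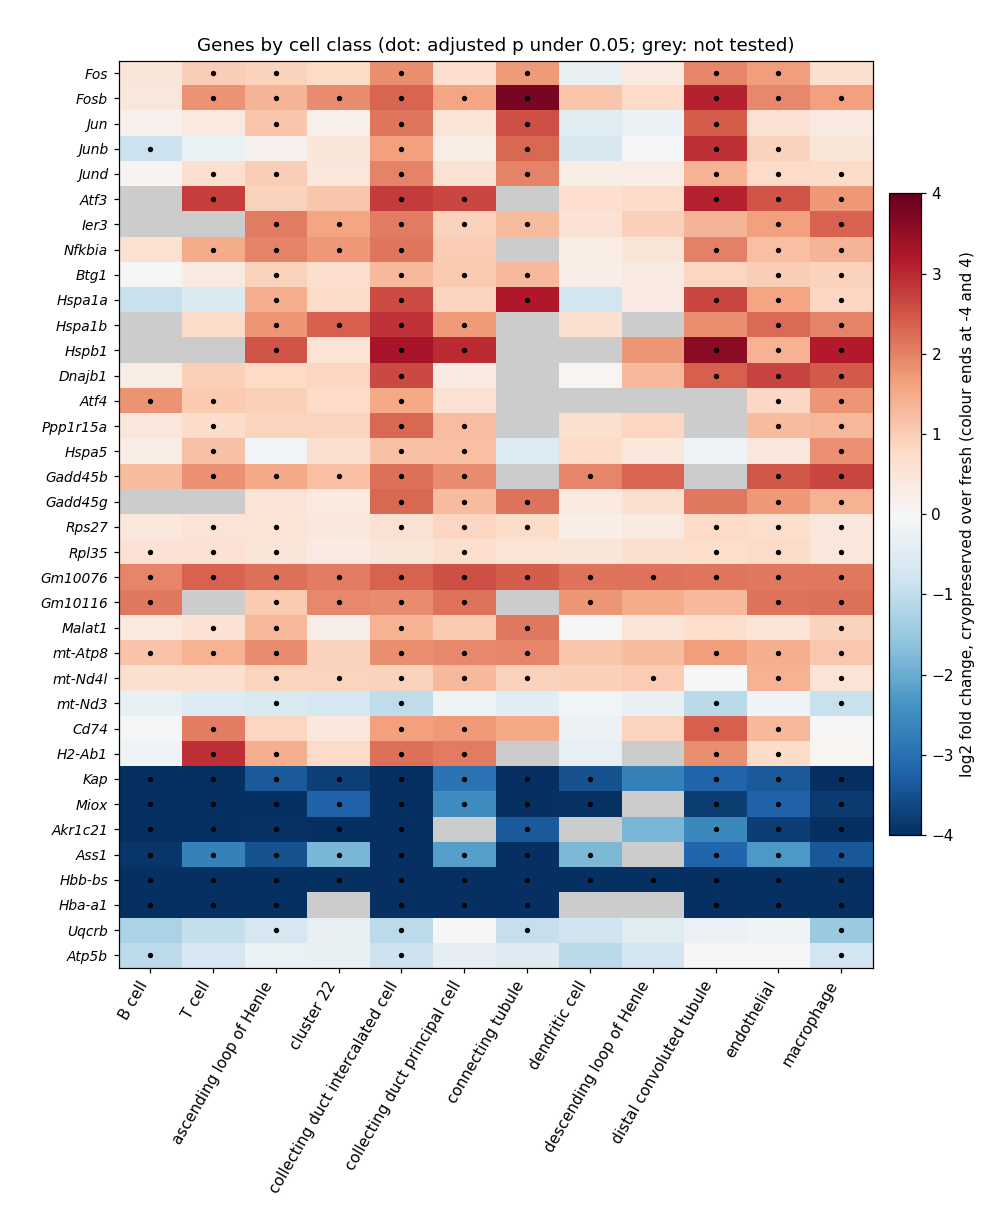
Log2 fold change of cryopreserved over fresh for 36 genes (rows) in 12 classes (columns), red for higher and blue for lower after cryopreservation, with colours ending at -4 and 4, a dot for an adjusted p under 0.05 and grey where a gene was not tested. Stress genes are dotted mainly in intercalated, endothelial, tubule and macrophage columns, and *Gm10076* is dotted in all 12.

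The p53 and apoptosis list had 19 of 56 pairs called higher and 0 lower (15 and 0 without BG31), carried by *Gadd45b*, *Gadd45g*, *Mcl1* and *Cdkn1a*. *Gadd45b*, a growth arrest gene induced by stress, was at 1.06, 0.594 and 0.780 UMIs per 10000 in fresh and 3.46, 2.83 and 2.83 in cryopreserved libraries and was called higher in 8 of 10 classes (5 without BG31). In macrophages its log2 fold change was 2.67 (SE 0.24). *Bax*, which permeabilises mitochondria in apoptosis, was called in none of 9 classes (median log2 fold change 0.01).

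The list of endoplasmic reticulum stress and the integrated stress response had 16 pairs called higher and 3 lower of 125 (12 and 0 without BG31). The calls were on few members. *Atf4*, the transcription factor of the integrated stress response, was at 0.869, 0.699 and 0.863 UMIs per 10000 against 2.07, 1.77 and 1.67 and was called higher in 5 of 8 classes. *Ppp1r15a*, which restores translation, was called higher in 5 of 10 classes, and *Hspa5*, the main chaperone of the endoplasmic reticulum, in 4 of 12. *Pdia3* and *Pdia6*, which are protein disulfide isomerases, and the chaperone *Hsp90b1* were each called lower in 1 class. Ubiquitin and proteasome genes had 6 pairs higher and 3 lower of 146 (6 and 1 without BG31), close to the background, with the polyubiquitin gene *Ubb* higher in 3 classes.

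Chemokine calls included *Ccl4* in macrophages and endothelial cells. *Ccl4*, a chemokine that attracts monocytes and T cells, was at 39.0, 20.6 and 34.5 UMIs per 10000 in fresh macrophages and at 100.4, 91.3 and 93.5 in cryopreserved ones (log2 fold change 1.68, SE 0.18). The macrophage groups were separate. In endothelial cells it had 5 UMIs in the fresh and 115 in the cryopreserved libraries together (log2 fold change 4.68, SE 0.60). The filter on low counts kept a gene with enough UMIs in 1 group alone. The endothelial pair passed it through the cryopreserved libraries, so its direction was close to fixed in advance. Of 34 pairs of the chemokine and cytokine list 8 were called higher and 1 lower, and *Tnf* and *Cxcl2* were among those called higher. The macrophage share of all cells was 4.56%, 5.43% and 4.73% in the fresh and 12.6%, 16.1% and 14.8% in the cryopreserved libraries, and its part in the endothelial value was not tested.

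Genes of the MHC list, which encode antigen-presenting proteins, were called higher in T cells, endothelial cells, the ascending loop of Henle, the distal convoluted tubule, intercalated cells and principal cells. None of them was called in the other 6 classes, among them macrophages, B cells and dendritic cells, and the difference between classes was not tested. *H2-Ab1* was at 0.145, 0.432 and 0.144 UMIs per 10000 in fresh T cells and 2.53, 2.19 and 1.84 in cryopreserved ones (log2 fold change 2.92, SE 0.44), and it was called higher in 6 of 10 classes. In T cells it passed the filter on low counts through the cryopreserved libraries, so its direction there was close to fixed in advance. *Cd74*, the class II invariant chain, was called higher in T cells, intercalated cells, principal cells, the distal convoluted tubule and endothelial cells. In macrophages and dendritic cells its levels overlapped. *Cd74* was at 658, 530 and 614 in fresh macrophages and 539, 602 and 598 in cryopreserved ones, and at 593, 525 and 476 against 503, 417 and 460 in dendritic cells. Over the MHC list 23 pairs were called higher and 0 lower of 86, and 18 and 0 without BG31. Macrophages and dendritic cells, which are known to make these transcripts, took larger shares of all cells in the cryopreserved libraries, and the part of this in the result was not tested.

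Other markers appeared in classes that do not define them. *Aqp6*, an intercalated cell aquaporin, had 0 UMIs in fresh principal cells and 88 in cryopreserved ones, at 1.81, 1.31 and 0.981 UMIs per 10000. *Aqp6* was tested there through its cryopreserved values alone, so its direction was close to fixed in advance. Without BG31, which had the highest level and the most principal cells, it did not pass the filter on low counts in principal cells and was not tested there. *Aqp2*, the principal cell water channel, was called higher in the connecting tubule, at 1.21, 1.94 and 2.88 against 12.2, 5.25 and 6.49, and in endothelial cells and cluster 22. In principal cells themselves *Aqp2* overlapped, at 113.7, 65.4 and 129.3 against 54.8, 132.1 and 77.1. *Ly6c1* and *Ifitm3*, both strong in endothelial cells, were called higher in intercalated cells. Of all cells, intercalated cells were 1.62%, 2.18% and 2.51% in fresh and 8.69%, 5.70% and 8.47% in cryopreserved libraries. Principal cells were 0.498%, 0.770% and 0.696% against 21.4%, 3.40% and 4.32%, and endothelial cells 4.15%, 4.04% and 3.72% against 13.1%, 19.2% and 17.6%. The part of these shares in the values was not tested.

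Transcripts of the proximal tubule were called lower in most other classes. Of 165 pairs of the list of tubule transcripts that leak into other cells, 107 were called lower and 1 higher (103 and 1 without BG31), with a median log2 fold change of -1.70. The list is not of the proximal tubule alone: *Umod* is a marker of the ascending loop and *Calb1* of the connecting tubule. Among its calls lower were *Calb1* in 3 of 5 classes, *Fxyd2* in 4 of 12, and *Gpx1* and *Prdx5* in 3 of 12 each. *Miox*, which breaks down inositol, was at 3.56, 5.28 and 3.09 UMIs per 10000 in fresh and 0.328, 0.146 and 0.189 in cryopreserved libraries and was called lower in all 11 classes tested. *Kap* was at 10.3, 28.7 and 11.2 against 1.15, 1.19 and 1.44 and was called lower in 11 of 12 classes. *Slc34a1*, the proximal phosphate transporter, was called lower in 9 of 10 classes and *Akr1c21* in 9 of 10. All these genes were separate between the groups. The filter on low counts kept a gene with enough UMIs in the libraries of 1 group. Genes near 0 after storage were thus tested because of their fresh values, which nearly fixed their direction. *Umod*, the uromodulin of the ascending loop, was the member called higher, in 1 of 8 classes. The proximal tubule share of the library moved with these values, from 71.7 ± 1.66% to 0.630 ± 0.0266%, and its part in them was not tested.

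Hemoglobin transcripts, which red blood cells bring into a suspension, were called lower in 31 and higher in 0 of 32 pairs. *Hbb-bs* was at 21.6, 12.3 and 47.7 UMIs per 10000 in the fresh libraries and at 0.116, 0.0900 and 0.178 in the cryopreserved ones. It was called lower in all 12 classes, and in the connecting tubule 940 fresh UMIs stood against 0. Such pairs passed the filter on low counts through the fresh libraries. Their direction was close to fixed in advance, and the counts of calls are to be read with this limit. *Hba-a1* and *Hba-a2* are near-identical copies and were each called lower in 9 classes.

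**Figure D4:**
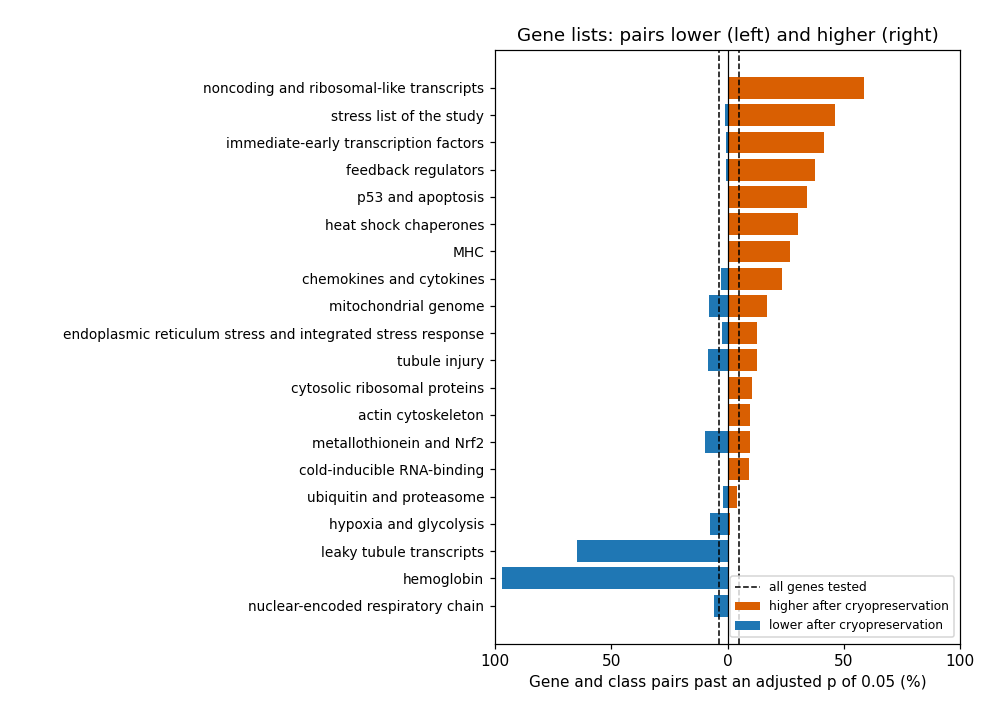
Percent of gene and class pairs called lower (blue, left) and higher (orange, right) after cryopreservation for 20 gene lists, with dashed lines at the shares over all pairs tested, 3.73% and 4.85%. Noncoding transcripts and stress lists extend to the right, up to 58.4%, and hemoglobin and leaky tubule transcripts to the left.

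Of the 22 lists the largest share of pairs called higher was in noncoding and ribosomal-like transcripts, with 45 of 77 pairs higher and 0 lower, and a median log2 fold change of 1.17. *Gm10076*, a predicted gene, was at 4.84, 5.01 and 6.98 UMIs per 10000 in fresh and 21.8, 27.0 and 27.4 in cryopreserved libraries and was called higher in all 12 classes, with and without BG31. After thinning to 500 UMIs it was detected in 18.5%, 20.2% and 26.6% of fresh and 60.7%, 64.0% and 67.8% of cryopreserved cells outside the proximal tubule. *Gm10073* was called higher in 9 of 12 classes and *Gm10116* in 8 of 10. These predicted genes may share reads with near-identical copies, so their values are uncertain as counts of 1 gene. *Malat1*, an abundant nuclear noncoding RNA, was at 466, 542 and 478 against 915, 839 and 914, and was called higher in 5 of 12 classes.

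Ribosomal protein genes had small differences in 1 direction. Of 924 pairs 97 (10.5%) were called higher and 0 lower (57 and 0 without BG31), against 4.85% and 3.73% of all pairs. Endothelial cells gave 37 of the calls, and cluster 22, dendritic cells and the descending loop of Henle gave 0. For 76 of the 77 genes the median log2 fold change was above 0, with 0.30 as the median of the list against -0.02 over all pairs. *Rps27* was at 46.1, 37.2 and 45.2 UMIs per 10000 against 56.5, 59.0 and 60.4 and was called higher in 8 of 12 classes (5 without BG31). *Rps29* was called higher in 6 classes with and without BG31, and *Rpl35* in 7 with it and 4 without it.

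Counts of the mitochondrial genome split by gene. How reads divided between neighbouring genes was not tested, so the values are not to be read as separate transcripts. *mt-Atp8*, a small ATP synthase subunit, was at 4.25, 3.22 and 4.54 UMIs per 10000 in fresh and 11.4, 12.1 and 9.47 in cryopreserved libraries and was called higher in 9 of 12 classes. *mt-Nd4l*, a complex I subunit, was at 10.5, 10.8 and 11.8 against 17.6, 19.2 and 18.1 and was called higher in 8, and *mt-Nd5* in 5. In contrast *mt-Nd3* was at 11.6, 11.4 and 13.9 against 8.27, 7.74 and 7.34 and was called lower in 4 classes. *mt-Co2* and *mt-Atp6* were each called lower in 3, and *mt-Nd4* in 1. The list as a whole had 26 pairs higher and 12 lower of 152 (19 and 17 without BG31), with a median log2 fold change of -0.02. Nuclear-encoded respiratory chain genes were called lower in 20 (6.02%) and higher in 0 of 332 pairs, against 3.73% lower over all pairs, and in 13 without BG31. Among them was *Uqcrb* of complex III, at 8.01, 6.82 and 9.31 against 5.45, 4.90 and 4.63.

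Several genes outside the lists were also called higher in many classes. *Tra2b*, a splicing regulator, was at 2.64, 1.89 and 2.06 UMIs per 10000 in fresh and 5.58, 4.46 and 4.84 in cryopreserved libraries, and was called higher in 7 of 11 classes. *Klf10*, a Krüppel-like transcription factor, was at 0.527, 0.452 and 0.360 against 1.30, 1.32 and 1.38 (6 of 7 classes). *Ccnl1*, a cyclin linked to splicing, and *Brd2*, a chromatin reader, were each called higher in 6 classes, and *H3f3b*, a histone variant, and *Chka*, a choline kinase, in 7 (4 and 6 without BG31). All of these were separate between the groups. They were picked for being called higher in the most classes, so this separation adds no support. *Actb*, the cytoplasmic actin, was at 31.3, 26.9 and 32.5 against 73.9, 38.8 and 37.1, and its 5 calls became 3 without BG31.

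Whether cryopreservation acted differently after warm than after cold dissociation was asked with 6 further libraries of the same strain, sex and age. Their kidneys were dissociated on ice with a protease of *Bacillus licheniformis*, with fresh libraries BG1, BG3 and BG5 and cryopreserved libraries BG30, BG32 and BG34. Over 12 libraries the difference of the 2 cryopreservation effects passed the threshold in 164 of 26152 pairs, of which 51 (0.195%) were higher and 113 (0.432%) lower on the log2 scale after warm than after cold dissociation. Of 143 immediate-early pairs 48 were lower and 0 higher, with medians of 0.78 after warm and 2.66 after cold dissociation.

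Averaged over the 8 classes present in all 12 libraries, *Fos* was at 0.06 ± 0.06 UMIs per 10000 in cold fresh, 10.1 ± 0.70 in cold cryopreserved, 15.4 ± 4.19 in warm fresh and 26.0 ± 0.51 in warm cryopreserved libraries (SD, n = 3 each). On the linear scale its cryopreserved minus fresh difference was 10.6 after warm and 10.1 after cold dissociation. *Fosb* had 0 UMIs in the classes of the cold fresh libraries, and its linear differences were 5.48 and 3.17. *Hspa1a* was at 0.19 ± 0.02, 13.9 ± 4.27, 16.1 ± 6.43 and 26.0 ± 3.87 in the same order, with linear differences of 9.90 and 13.7. For these genes the cells frozen after warm dissociation had the highest mean level of the 4 groups.

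*Junb* was at 0.97 ± 0.14 in cold fresh and 7.89 ± 1.46 in cold cryopreserved libraries, and at 22.1 ± 5.68 in warm fresh and 21.8 ± 1.44 in warm cryopreserved ones. Its linear difference was 6.92 after cold and -0.30 after warm dissociation. *Jun* was at 0.56 ± 0.09, 8.06 ± 0.70, 13.5 ± 2.20 and 18.6 ± 1.31, with linear differences of 7.50 after cold and 5.15 after warm dissociation. *Ppp1r15a* was at 0.17 ± 0.01, 1.83 ± 0.34, 2.69 ± 0.40 and 5.20 ± 0.68, with differences of 1.65 and 2.51. On the linear scale the mean difference was thus larger after cold dissociation for *Hspa1a*, *Jun* and *Junb* and larger after warm dissociation for *Fos*, *Fosb* and *Ppp1r15a*, and these linear differences were not tested.

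Cell shares were compared in the same way. Of 17 classes 4 (23.5%) had a share outside the proximal tubule whose change differed between the dissociations. The ascending loop of Henle was at 8.14%, 7.33% and 8.30% in cold fresh libraries and at 1.01%, 1.91% and 1.83% in cold cryopreserved ones, against 23.1%, 19.2% and 27.0% and 10.5%, 12.7% and 13.0% in the warm ones. Its log2 change was higher by 1.35 after warm dissociation (SE 0.35, adjusted p = 0.021, edgeR). The distal convoluted tubule was at 9.86%, 6.02% and 6.14% in cold fresh and 1.01%, 1.78% and 0.914% in cold cryopreserved libraries, and its change differed by 1.77 (SE 0.42, adjusted p = 0.018, edgeR). The connecting tubule differed by -1.32 and principal cells by 2.64 (adjusted p = 0.044 each, edgeR). These calls were not firm: leaving out 1 of the 12 libraries at a time ended the call in 3 of 12 fits for the ascending loop, 1 for the distal convoluted tubule, 9 for the connecting tubule and 9 for principal cells. Without BG31 the difference for principal cells was 1.23.

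**Figure D5:**
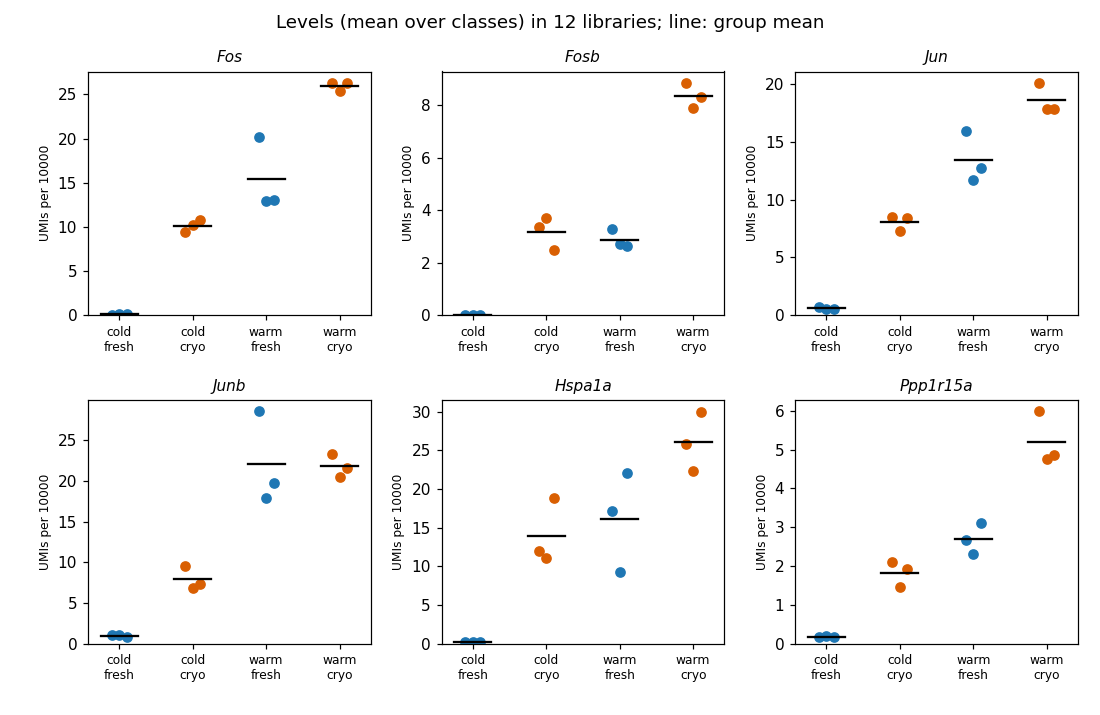
Level of 6 genes (UMIs per 10000, mean over 8 classes) in each of 12 libraries by dissociation and storage, with a line at the group mean. Cold fresh libraries lie at or near 0, and warm cryopreserved libraries are highest on average for all genes but *Junb*, where the warm groups overlap.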

How the data were processed

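Single-cell suspensions of mouse kidney were profiled with the 10x Chromium 3′ kit, chemistry version 2. Per the labels and the study's methods, the authors made the deposited UMI counts with Cell Ranger 2.1.1 on mm10 and kept cells by EmptyDrops and Scater filters, and the counts were not normalized. The submitters' processing notes also list Seurat 2, used by the authors for their own tests and cell cycle calls, and STAR 2.6.1a, used for bulk libraries, neither of which entered these counts. The 13049 genes listed for both groups were used (13392 fresh, 13114 cryopreserved), and 12788 with the cold libraries. Different gene lists per group can hide genes absent from 1 group.

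The 12 warm and cold libraries were clustered together in scanpy 1.11.5 (Python 3.11.15; 2000 variable genes, 30 components, 20 neighbours, Leiden resolution 2, leidenalg 0.10.2), and clusters were named from markers. Marked doublets (3.54% of fresh and 0.947% of cryopreserved cells) were kept. Cluster 22 went unnamed (67 fresh, 145 cryopreserved cells) and was tested under its number, and the other unnamed clusters, which were not tested, held 15 and 38 cells. UMIs were summed per library and class with at least 10 cells and tested with edgeR 4.0.16 quasi-likelihood (R 4.3.3, TMM, filterByExpr), with Benjamini-Hochberg adjustment within each class and a threshold of 0.05. BG2 was left out for cluster 22 (5 cells). The filter on low counts keeps a gene that is high enough in 1 group alone, so genes near 0 in the other group entered the tests. Cell numbers per class were tested likewise. Per-cell measures were compared by two-sided exact permutation over 3 against 3 libraries (scipy 1.17.1) after thinning to 500 UMIs where stated, which left out shallower cells (190 of BG31, 57 to 127 in the others). Intervals cover counting error only. DESeq2 1.42.0 and other settings were tried as alternatives.

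Aliquots of 1 suspension are paired by animal through the barcode prefixes. The deviations of paired libraries correlated between -0.150 and 0.236 (median 0.041, 33 correlations over 11 classes), and those of unpaired libraries between -0.320 and 0.236. All paired values were above all unpaired ones in the ascending loop, the distal convoluted tubule and endothelial cells, and below them in intercalated cells. The main fit had no block for the suspension. Genes were named by counts of classes called within each list, outside the lists and per class; further list members are given by their counts. The 22 lists, the markers and the libraries to report on were chosen with earlier results of these data known, although the rule for the libraries reads only the labels. Some genes that this rule named are not reported here.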

Additional observations from a re-analysis of the deposited data

Results flagged for a closer look

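The log2 cryopreservation effect differed between warm and cold dissociation in few pairs, by an interaction test over 12 libraries (edgeR, adjusted p under 0.05). Of 26152 pairs 51 (0.195%) were higher and 113 (0.432%) lower after warm dissociation. By the rule for named genes 6 genes are given, and on the linear scale they did not all share the direction, as given above. The median over classes of the warm minus the cold log2 effect was -6.58 for *Fos* (past the threshold in 9 of 11 classes), -3.01 for *Jun* (8 of 11), -6.75 for *Fosb* (7 of 11), -5.67 for *Hspa1a* (6 of 11), -2.77 for *Junb* (5 of 11) and -2.46 for *Ppp1r15a* (5 of 10). *Fosb* had 0 UMIs in the classes of the cold fresh libraries, so that its fitted difference depends on the prior count and gives no bound. Over all classes of the 3 cold fresh libraries *Fos* had 35 UMIs, *Ppp1r15a* 100 and *Hspa1a* 110, so that their fitted differences rest on few counts in single classes and are no bound either. *Dusp1* (median -1.85) was also past the threshold in 5 of 11 classes, and *Fxyd2*, a subunit of the sodium pump, in 5 of 11 in the other direction (median 1.71).

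The same test on cell shares outside the proximal tubule gave differences of 1.35 for the ascending loop of Henle, 2.64 for principal cells, -1.32 for the connecting tubule and 1.77 for the distal convoluted tubule. Leaving out each of the 12 libraries in turn, an alternative chosen after seeing the data, gave 1.14 to 1.53, 1.23 to 3.05, -1.61 to -0.969 and 1.53 to 2.19 in the same order.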

How the results depend on the processing

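The share of proximal tubule cells stayed past the threshold in all 12 alternatives run, with a log2 difference of -6.84 to -6.79 with 1 library left out. Classes at a lower share outside the proximal tubule numbered 2, and 4 with the warm libraries clustered alone, 1 with the replicate block, 1 as a share of all cells and 1 to 3 with 1 library left out. Classes at a higher share numbered 0, and 3 with cells named by marker score, 2 with the warm libraries alone, 14 of all cells and 0 to 8 with 1 library left out (8 without BG31). The 929 pairs higher and 715 lower became 2233 and 2954 with names by marker score, 586 and 408 with DESeq2, 1429 and 1712 with no filter, and 64 and 53 with the study's thresholds on size and detection. With 1 library left out they were 572 to 883 and 399 to 758, lowest without BG35. Of the calls higher, 577 were shared with DESeq2 and 810 with the naming by score, and no call took the opposite direction in the alternatives whose calls were compared. The replicate block gave 955 and 730, and of the 6 results it was run on besides named genes it moved the classes at a lower share, given above, by over 1.5 times. The 164 pairs that differed between warm and cold dissociation became 367 with no filter, 234 with the replicate block and 118 to 200 with 1 library left out.

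UMIs per cell outside the proximal tubule differed by -136, by 238 with names by marker score and by -262 to 24.8 with 1 library left out (24.8 without BG31). The genes per cell at 500 UMIs outside the proximal tubule differed by -6.33, by 1.33 with names by score, by -29.5 at 1000 UMIs, by -79.8 with no thinning and by -13.7 to 0.833 with 1 library left out (0.833 without BG2). The share of cells with a Kap UMI outside the proximal tubule at 500 UMIs differed by -42.1 percentage points, and by -66.1 with no thinning. Of 1308 values of named genes, 1254 kept direction and side of the threshold, 46 fell below it, 7 passed it and 1 changed sign: *Clu*, at 0.13 with names by score. The causes of these changes were not tested. The smallest classes tested held 41 fresh and 69 cryopreserved cells (dendritic cells) and 76 and 87 (descending loop of Henle), and the part of class size in the number of calls was not tested.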

Other observations

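Lists not described above are given as counts of pairs, to be read against 4.85% called higher and 3.73% lower over all pairs. Tubule injury genes had 6 pairs higher and 4 lower of 47 (5 and 2 without BG31). Among them the keratin gene *Krt18* was called higher in 2 of 4 classes, and *Spp1*, which encodes osteopontin, was called lower in 3 of 9, at 16.8, 17.8 and 18.2 UMIs per 10000 in the fresh and 8.95, 9.86 and 10.8 in the cryopreserved libraries. Hypoxia and glycolysis genes had 1 higher and 7 lower of 94 (1 and 4 without BG31), with *Ndrg1* lower in 3 of 9 classes at 2.34, 2.62 and 2.14 against 1.18, 1.12 and 1.28.

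Metallothionein and Nrf2 genes had 8 pairs higher and 8 lower of 83 (9.64% each, against 4.85% and 3.73% of all pairs). *Mt1*, a metal-binding metallothionein, was called higher in 5 of 10 classes, and in the descending loop of Henle it was at 0.606, 0.781 and 0.214 in fresh and 8.67, 32.0 and 8.08 in cryopreserved libraries (log2 fold change 4.67, SE 0.72, edgeR). In that class it passed the filter on low counts through the cryopreserved libraries, so its direction there was close to fixed in advance. *Prdx1*, a peroxiredoxin, was called lower in 2 of 12 classes (1 without BG31). Actin cytoskeleton genes had 16 higher (9.64%) and 0 lower of 166 (11 and 0 without BG31), of which *Tmsb10* gave 5. The median log2 fold change of this list was -0.007, and 12 of its 16 members were called in no class. The cold-inducible gene *Cirbp* was called higher in 2 of 11 classes (1 without BG31) and *Rbm3* in none of 11.

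Among markers of intercalated cell types, type A genes had 5 pairs higher and 1 lower of 12 (4 and 0 without BG31) and type B genes none called of 4. In intercalated cells alone 4 of the 8 type A genes tested were called higher, against 5.71% of all genes tested there. Cluster 31, whose leading genes include the type A genes *Aqp6*, *Slc4a1* and *Kit*, held 10.8% of the fresh and 49.3% of the cryopreserved intercalated cells, and the part of this in the counts was not tested. *Cebpb*, a transcription factor of the acute phase, was called higher in 5 of 8 classes, and in macrophages it was at 1.52, 1.85 and 2.55 against 4.90, 4.10 and 3.79.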
